A study of Rattus norvegicus with 10 samples.

Results

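The miR-30 family was examined through the 6 array probes whose name is rno-miR-30 followed by a letter a to e: miR-30a-5p, miR-30a-3p, miR-30b, miR-30c, miR-30d and miR-30e. They are 6 of the 237 probes that carry a rat miRNA name, among 1107 probes in all, and each was printed as 3 spots. RNA came from collateral blood vessel tissue of 5 male Spraque-Dawley rats (spelled as in the labels), with no age stated in the labels. The shunt group (n = 5) came from the leg in which the femoral artery was ligated and an arteriovenous shunt was made to raise fluid shear stress. The control group (n = 5) came from the sham-operated leg opposite. No rat was left unoperated, so both groups share an animal that carried a ligation and a shunt. Each RNA was read on 2 of 10 two-colour arrays arranged in a loop, once labelled with AF665 and once with AF546.

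A microRNA is a short RNA that lowers the output of messenger RNAs which pair with its seed, the stretch of bases 2 to 8 from its 5′ end. Each precursor hairpin can give a mature RNA from its 5′ arm (5p) and from its 3′ arm (3p). The 5p arms of the miR-30 family share a seed and are therefore expected to share many targets, while the 3p arms read other targets. In rat heart muscle cells miR-30 is known to restrain connective tissue growth factor, a matrix-promoting protein. In zebrafish and in human endothelial cells it is known to lower Dll4, a Notch ligand that limits vessel sprouting.

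Mature sequences for 4 of the 6 members were found by name in the RefSeq rat table (build GRCr8); miR-30b and miR-30d are named only. They are shown because a shared seed, and for some members a nearly identical body, decides how far the probes can be read as separate measurements. Capitals mark the seed.
miR-30a-5p: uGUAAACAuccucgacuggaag
miR-30e: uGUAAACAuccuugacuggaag
miR-30c: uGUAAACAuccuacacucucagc
miR-30a-3p: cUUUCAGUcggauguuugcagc
The first 3 hold the seed GUAAACA, and the 3p arm of miR-30a holds UUUCAGU. Counted from the 5′ end, miR-30e differs from miR-30a-5p by the single substitution C13U over 22 bases. miR-30c differs from miR-30a-5p at 5 of the 22 bases compared, all outside the seed. The seed is also carried by rat miR-384-5p, for which no probe was analysed here.

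Both arms of miR-30a come from the hairpin Mir30a, at chr9:33233941-33234011 on the plus strand, in which no other annotated gene lies. Its sequence is shown, with capitals for the 5p arm (chr9:33233946-33233967) and the 3p arm (chr9:33233987-33234008).
Mir30a: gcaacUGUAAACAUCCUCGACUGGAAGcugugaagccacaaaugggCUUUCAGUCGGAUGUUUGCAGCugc
The mature miR-30c is encoded in 2 places. Mir30c2 lies 19670 bases from Mir30a, at chr9:33253682-33253765, within the long non-coding gene LOC134480562 and the pseudogene Rbx1-ps1. Mir30c1 lies on the minus strand at chr5:139634455-139634543, and Mir30e at chr5:139637450-139637541, 2906 bases apart and both within the bounds of Nfyc, which encodes a subunit of a CCAAT-binding factor. The array cannot assign miR-30c signal to either hairpin.

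The members were dim, and how often each exceeded its background set what could be compared. A reading counted as above background where 2 or more of the 3 spots were brighter than their surroundings by over 2 SD. miR-30d, a 5p member, passed in all 20 channels. miR-30c passed in 18 of 20 channels, miR-30b in 16, miR-30a-5p in 15 and the opposite arm miR-30a-3p in 13. miR-30e passed in 0 of 20 channels, and 26 of its 30 spot readings carried a flag from image reading. Thus miR-30e was not well above background in either group, although it differs from miR-30a-5p by 1 base, and no difference between the groups is given for it. Its values on the log2 scale lay between 5.77 and 5.89 in shunt RNAs and between 5.76 and 5.81 in control RNAs, near the floor of 5.64 set by the offset of 50.

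In raw terms the signals were small. The net intensity of miR-30d (mean foreground minus local background) ran from 12.3 through a median of 86.3 to 249.7 in the AF665 channels of shunt RNAs, against 39.7, 93.7 and 146 in those of control RNAs. In the AF546 channels miR-30d had 76.7, 86.3 and 253 in shunt RNAs, against 46.7, 78.7 and 173 in control RNAs. For miR-30d the brightest shunt reading thus exceeded the brightest control reading in both dyes, before any normalization. For miR-30a-5p the net AF665 intensity ran from 5.33 through 26.7 to 72 in shunt RNAs, against 19, 53.3 and 84 in control RNAs. In AF546 the same probe had 25.7, 43 and 86.7 in shunt RNAs, against 25, 38.7 and 111.7 in control RNAs, with 4 shunt and 2 control readings above background. The shunt median of miR-30a-5p was thus the lower in AF665 and the higher in AF546. The 3 spots of a member differed little: the median SD between spots was 0.072 to 0.11 log2 for the 5 members above background, though single channels reached 0.68 (miR-30c).

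The number of miR-30 probes above background per RNA, as a mean of its 2 channels, was 3.5, 5, 5, 5 and 3 in shunt RNAs 1 to 5, against 4.5, 4, 4, 4.5 and 2.5 in control RNAs 1 to 5. The means were 4.30 ± 0.97 in shunt and 3.90 ± 0.82 in control RNAs (SD, n = 5 each). Over all 237 rat miRNA probes the shunt RNA had more above background in every animal. These wider counts were 72.5, 102, 92, 99 and 78.5 in shunt RNAs 1 to 5. In control RNAs 1 to 5 they were 71, 36.5, 63, 84.5 and 47.5. Whether the miR-30 count departed from this wider rise was not tested. For the miR-30 probes the shunt RNA had more in 4 of 5 animals. The groups overlapped, and an exact two-sided permutation test did not separate them (p = 0.603 over unpaired RNAs, and p = 0.4375 when only the legs of an animal were exchanged, where 0.0625 is the smallest possible).

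**Figure D1:**
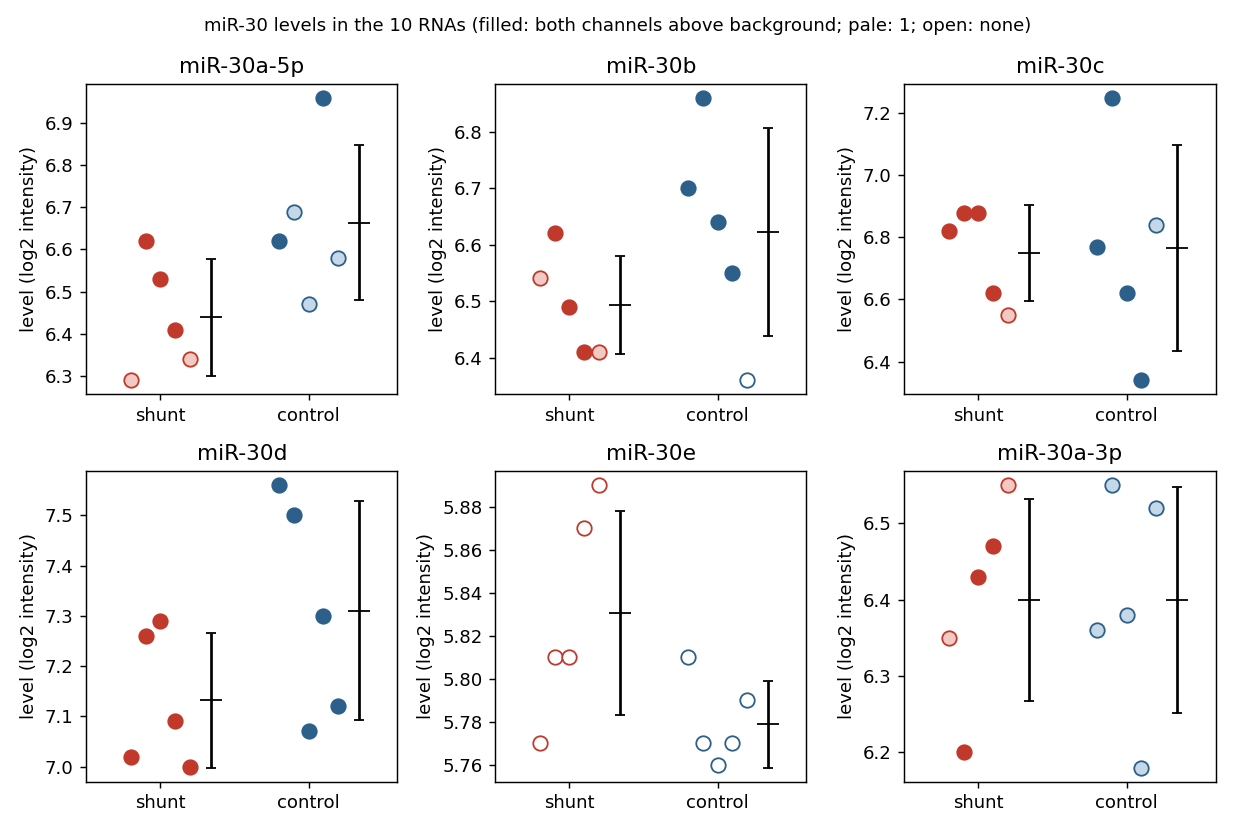
Level of each miR-30 member (log2 intensity, a separate scale in each panel) in the 5 shunt and the 5 control RNAs, with the mean and SD beside each group; filled points were above background in both channels, pale points in 1 and open points in none. Groups overlapped for all 6 members, and miR-30e was open throughout.

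Among the 5p members, miR-30a-5p had the largest fitted difference in these levels, while miR-30d differed more in the AF546 channel, without control 4, in array ratios only and on the 2 arrays with both groups. The level of miR-30a-5p was 6.29, 6.62, 6.53, 6.41 and 6.34 log2 in shunt RNAs 1 to 5, against 6.62, 6.69, 6.47, 6.96 and 6.58 in control RNAs 1 to 5. Controls 2 and 4 stood above every shunt RNA, controls 3 and 5 lay within the shunt range, and control 1 was level with the highest shunt RNA. The means were 6.44 ± 0.14 in shunt and 6.66 ± 0.18 in control RNAs (SD, n = 5 each). The fitted difference, shunt minus control, was -0.22 log2 (SE 0.10, 95% confidence interval -0.45 to 0.0052), or 0.856-fold. It did not pass the limma test with Benjamini-Hochberg adjustment over the 93 rat miRNAs kept (adjusted p = 0.254, or adjusted p = 0.318 where animal was blocked). miR-30a-5p was lower in the shunt leg of 4 of 5 animals, by -0.33, -0.07, -0.55 and -0.24 in animals 27, 28, 31 and 32, and higher by 0.07 in animal 30.

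miR-30d, the member above background in every channel, had 7.02, 7.26, 7.29, 7.09 and 7.0 in shunt RNAs 1 to 5, against 7.56, 7.50, 7.07, 7.30 and 7.12 in control RNAs 1 to 5. Controls 1, 2 and 4 lay above every shunt RNA, and controls 3 and 5 lay inside the shunt range. The means were 7.13 ± 0.13 and 7.31 ± 0.22 (SD, n = 5 each), shunt first. The difference of -0.18 (SE 0.11, interval -0.43 to 0.070) did not pass limma (adjusted p = 0.307). Again 4 of 5 animals were lower in the shunt leg, animal 27 most (-0.54), and animal 30 was higher (0.22). In animal 28 the lower value appeared only after normalization. Its net miR-30d intensity was 249.7 (AF665) and 253 (AF546) in the shunt RNA, against 39.7 and 55.3 in the control RNA. The net intensities of miR-30a-5p, miR-30b and miR-30c in animal 28 were likewise higher in the shunt RNA in both dyes.

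miR-30b had 6.54, 6.62, 6.49, 6.41 and 6.41 in shunt RNAs 1 to 5, against 6.70, 6.86, 6.64, 6.55 and 6.36 in control RNAs 1 to 5. Controls 1, 2 and 3 lay above every shunt RNA, and control 5, not above background in either channel, lay below them all. Its difference was -0.13 (SE 0.096, interval -0.34 to 0.083; limma adjusted p = 0.363). The shunt leg was lower in 4 of 5 animals, with animal 32, the one with the dim control, as the exception (0.05).

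miR-30c showed no common direction. It had 6.82, 6.88, 6.88, 6.62 and 6.55 in shunt RNAs 1 to 5, against 6.77, 7.25, 6.62, 6.34 and 6.84 in control RNAs 1 to 5. The controls spanned a wider range than the shunt RNAs, at both ends. Its difference was -0.015 (SE 0.15, interval -0.35 to 0.32; limma adjusted p = 0.967), lower in the shunt leg of 2 of 5 animals (28 and 32). The 2 readings of control 5 differed widely, at 7.27 in AF665 and 6.41 in AF546, and the AF546 reading was not above background.

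miR-30a-3p, the opposite arm of the miR-30a hairpin, had 6.35, 6.20, 6.43, 6.47 and 6.55 in shunt RNAs 1 to 5, against 6.36, 6.55, 6.38, 6.18 and 6.52 in control RNAs 1 to 5. The groups covered nearly the same range. The difference was 0.00052 (SE 0.094, interval -0.21 to 0.21; limma adjusted p = 0.996), and 2 of 5 animals were lower in the shunt leg. Readings above background numbered 8 of 10 for shunt RNAs and 5 of 10 for control RNAs, the gap lying in AF665 (4 against 1). The 5p minus 3p reading of the hairpin was 0.04 ± 0.24 log2 in shunt and 0.26 ± 0.30 in control RNAs (SD, n = 5 each), lower in 3 of 5 animals. Control 4 was highest at 0.78, and the other controls lay within the shunt range of -0.21 to 0.43. The difference between groups was not tested. These probes are not on a common scale, so the values do not tell which arm is more abundant.

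**Figure D2:**
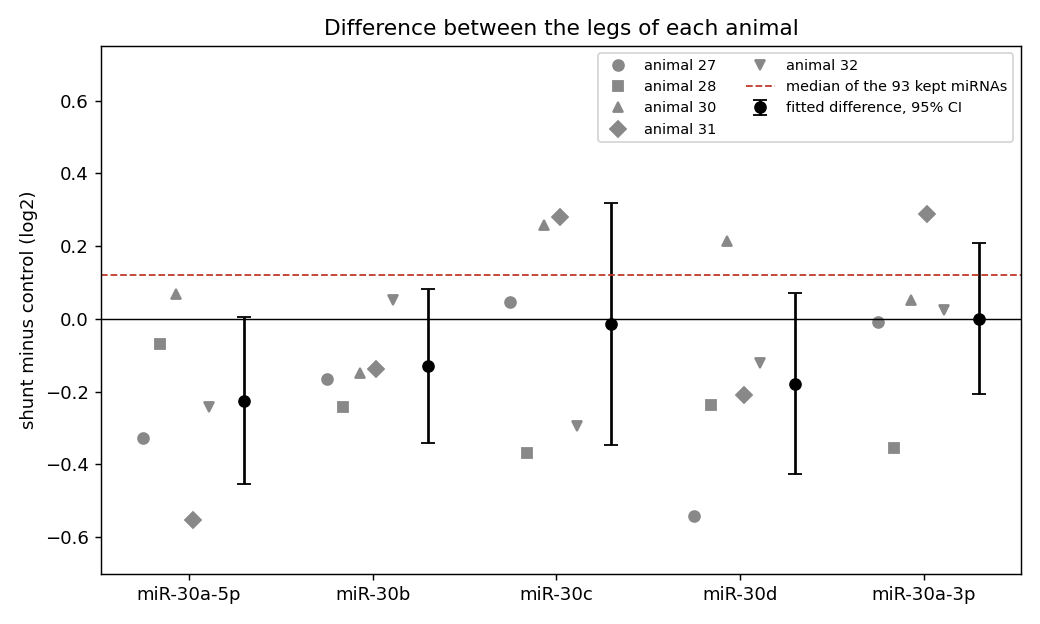
Shunt minus control difference (log2) of the 5 kept miR-30 members in each of the 5 animals (grey symbols) and the fitted difference with its 95% confidence interval (black). The dashed line marks the median of 0.12 over the 93 kept miRNAs; every interval includes 0, and without between-array normalization miR-30b, miR-30c and miR-30d read above 0.

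Of the 5 kept members, 0 passed the limma test, against 1 of the 93 miRNAs kept (1.08%); 0 miRNAs passed as lower (0%). The 1 that passed, miR-21, was above background in 8 of 20 channels and so was kept through 1 group alone. At an unadjusted p under 0.05 the members numbered 0, against 18 of 93 (19.4%). Measured values that did not overlap between the groups were found for 0 members, against 5 of 93 miRNAs (5.38%). miR-30a-5p had the smallest p among the members and ranked 20 of 93. The count over all miRNAs was unsteady: it was 0 with the animal as a block, 8 with a separate-channel model and 25 without control 4, and the members' count was 0 in each of these.

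The sign of the differences set the members beside a table of kept miRNAs that leaned the other way. With no filter on dim probes the median over all 237 rat miRNA probes was 0.020. The fitted difference was below 0 for the 4 kept 5p members, with a median of -0.15, while 26 of the 93 miRNAs (28%) were below 0 and the median over all was 0.12; without between-array normalization the median over all was 0.28 and miR-30b (0.040), miR-30c (0.26) and miR-30d (0.16) turned above 0. Being lower in at least 4 of 5 animals held for 3 members (miR-30a-5p, miR-30b and miR-30d) and for 9 of 93 miRNAs (9.68%). By animal, the median of the 4 5p members was -0.25, -0.24, 0.14, -0.17 and -0.18 in animals 27, 28, 30, 31 and 32, against medians over all kept miRNAs of 0.12, 0.19, 0.30, -0.04 and 0.03. The median of the 5p members lay below the table's median in all 5 animals, though single members did not: miR-30c differed by 0.28 in animal 31 and miR-30b by 0.05 in animal 32. In animal 28 the 4 5p members were lower in the shunt RNA only after normalization, since their net intensities were higher there in both dyes. No test is given for this list, since its members were chosen with earlier results known. The 5 animals are the replicates here, and the members are not.

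**Figure D3:**
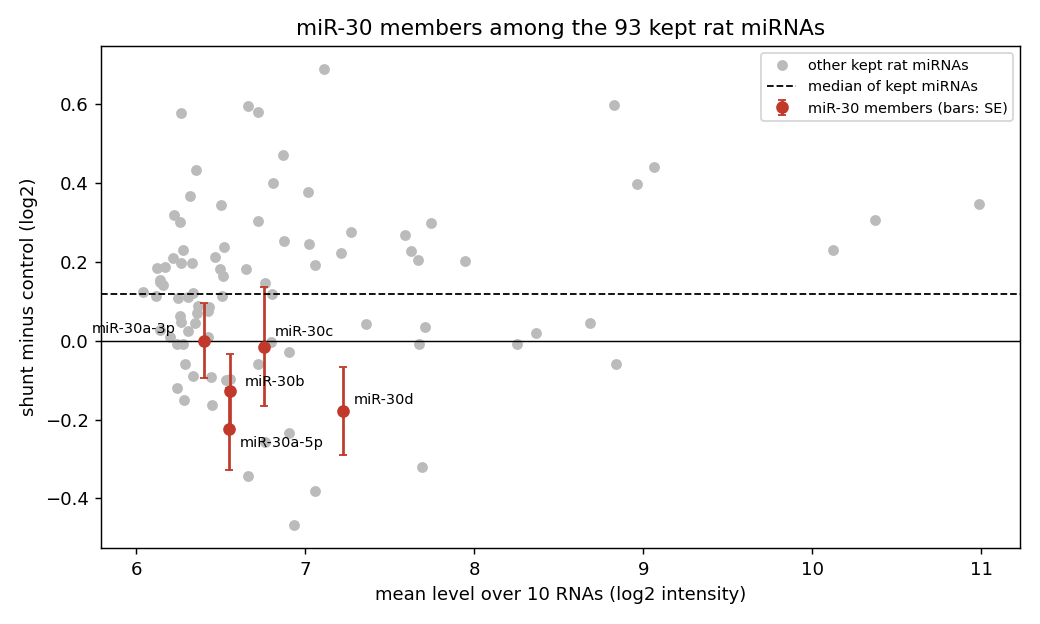
Shunt minus control difference (log2) against the mean level over the 10 RNAs (log2 intensity) for the 93 kept rat miRNAs, with the miR-30 members in red (bars: SE) and the median of all as a dashed line at 0.12. The 4 5p members lie below 0 in this processing (3 of them, miR-30b, miR-30c and miR-30d, above 0 without between-array normalization), among other miRNAs with differences as large or larger.

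Rat miRNAs above background numbered 72.5 to 102 per shunt RNA and 36.5 to 84.5 per control RNA. These ranges overlap, but the shunt RNA had more in every animal. The median level of the kept miRNAs was 6.56 to 6.73 in shunt and 6.43 to 6.60 in control RNAs, which overlap as well. Within animals this median was higher in the shunt RNA, except in animal 31 (6.58 against 6.60). After the median of the kept miRNAs was subtracted within each RNA and the overall level restored, all 5 kept members were below 0, as were 49 of the 93 miRNAs (52.7%). The differences were -0.35 (SE 0.085) for miR-30a-5p, -0.30 (SE 0.11) for miR-30d, -0.25 (SE 0.11) for miR-30b, -0.14 (SE 0.16) for miR-30c and -0.12 (SE 0.12) for miR-30a-3p. miR-30a-5p then passed the limma test (adjusted p = 0.0391) and its groups did not overlap: the centred level was 6.22, 6.46, 6.46, 6.39 and 6.35 in shunt RNAs 1 to 5, against 6.69, 6.80, 6.61, 6.92 and 6.61 in control RNAs 1 to 5. It was 1 of 2 miRNAs past the threshold as lower (2.15%), and 1 of 4 without overlap as lower (4.3%). miR-30d (adjusted p = 0.177) and miR-30b (adjusted p = 0.253) did not pass. Whether the median difference of 0.12 over all kept miRNAs reflects the tissue or the arrays cannot be told apart, since 8 of the 10 arrays held RNA of 1 group only. The median was 0.020 over all 237 rat miRNA probes with no filter, and 0.23 over the 32 kept by a stricter filter. A miRNA could be kept through either group alone. The part of the filter in the median and in the centred differences was not tested.

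Each RNA was read in both dyes, which gave a second look at every difference. In the AF665 channel miR-30a-5p averaged 6.53 ± 0.15 in shunt and 6.80 ± 0.18 in control RNAs, and in the AF546 channel 6.35 ± 0.14 in shunt and 6.52 ± 0.25 in control RNAs (SD, n = 5 each). The differences of -0.28 and -0.17 had the same sign. miR-30d differed by -0.17 in AF665 and -0.18 in AF546, and miR-30b by -0.092 and -0.16, so these 3 members read lower in both dyes. miR-30c (-0.092 in AF665, 0.062 in AF546) and miR-30a-3p (0.077 and -0.076) changed sign with the dye. The probes also had their own dye bias: within an RNA, AF665 exceeded AF546 by 0.23 ± 0.17 log2 for miR-30a-5p (SD, n = 10 RNAs, AF665 higher in all 10), while miR-30a-3p differed by -0.12 ± 0.20.

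Only 2 arrays held shunt and control RNA side by side. On the array of shunt 1 (AF546) and control 5 (AF665), miR-30a-5p differed by -0.48, miR-30c by -0.44, miR-30d by -0.29, miR-30a-3p by -0.081 and miR-30b by 0.076. On the array of shunt 5 (AF665) and control 1 (AF546), in opposite dyes, miR-30d differed by -0.47, and miR-30a-5p, miR-30a-3p, miR-30b and miR-30c by 0.13, 0.094, 0.016 and 0.012. miR-30d was the member that read lower in the shunt RNA on both arrays, and it was the member above background in all 4 of these channels. On the first array the shunt readings of miR-30a-5p, miR-30a-3p and miR-30b were not above background, nor was the control reading of miR-30b. On the second array the other 4 kept members were not above background in the shunt channel. Differences against such readings rest on signal not told from background. The median difference over the kept miRNAs was -0.0062 on the first array and 0.087 on the second. On average miR-30a-5p read 0.23 log2 higher in AF665, which labelled the control on the first array and the shunt on the second. The part of the dye in these differences was not tested. When levels were solved from the array ratios alone, the difference was -0.33 for miR-30d, 0.038 for miR-30a-5p, -0.036 for miR-30b and -0.13 for miR-30c.

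The authors' deposited value table, which holds log2 levels centred on 0 in each row, gave miR-30a-5p a difference of -0.22 and miR-30b one of -0.098, each lower in the shunt leg of 4 of 5 animals. For miR-30d it gave 0.011, with 3 animals lower, and for miR-30c 0.15, with 1 animal lower. miR-30d in that table differed by -0.45, 1.28, 0.40, -0.78 and -0.39 in animals 27, 28, 30, 31 and 32, so that animal 28 stood on the opposite side from its value of -0.24 in the levels used here. The same turn in animal 28 was seen for the other 5p members, which differed there by 0.46 (miR-30a-5p), 0.48 (miR-30b) and 0.73 (miR-30c) in the authors' deposited table, against -0.07, -0.24 and -0.37 in the levels used here. The authors' deposited p-values for the 2 legs of an animal were under 0.05 in 1 case over the 6 members, that of miR-30d in animal 28 (authors' p = 0.0403), and their test is not stated. Of the 5 kept members, miR-30a-5p and miR-30b had a group difference of the same sign in that table and in the levels used here.

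**Figure D4:**
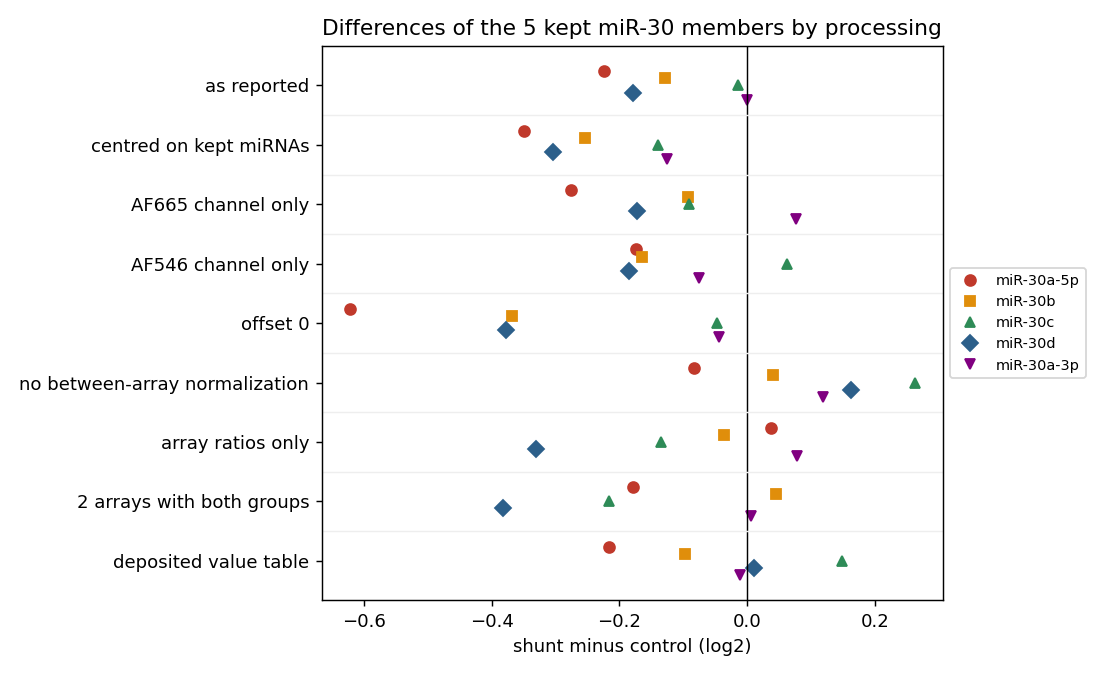
Shunt minus control difference (log2, x axis) of the 5 kept miR-30 members under 9 ways of processing the same arrays (rows). miR-30a-5p is below 0 in each row except that of array ratios only; miR-30d is above 0 with no between-array normalization (0.16) and in the deposited value table (0.011).

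The kept members did not move as a unit over the 10 RNAs. Pearson's r between pairs of 5p members ran from -0.071 (miR-30a-5p with miR-30c) to 0.72 (miR-30b with miR-30d), and it was 0.65 for miR-30a-5p with miR-30d. miR-30a-3p correlated with its own 5p arm by -0.47. Outside the family, the 5 kept miRNAs most like the mean of the 4 5p members, by Pearson's r over the 10 RNAs, were miR-27a (0.86, Spearman's rho 0.88), miR-29a (0.82, rho 0.85), miR-27b (0.78, rho 0.77), miR-126 (0.77, rho 0.68) and miR-150 (0.72, rho 0.66). With each RNA set against its group mean these r were 0.84, 0.80, 0.84, 0.88 and 0.81. The 5 were picked by r over the same RNAs, so these values are no separate support for the likeness. By the r within groups, miR-23a (0.94) and miR-133a (0.89) stood above all 5. The RNAs share arrays and normalization, and these values are descriptions without a test.

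The tissue was checked by marker miRNAs. Those of contractile smooth muscle (miR-143 and miR-145) exceeded background in 19 of 20 readings of shunt and 18 of 20 of control RNAs, with summed intensities of 398 to 748 in shunt and 375 to 817 in control RNAs. The endothelial miR-126 was above background in all channels and its opposite arm miR-126* in none. Striated muscle markers (4 of 4 kept) exceeded it in 36 of 40 shunt against 26 of 40 control readings, with sums of 440.2 to 734 against 345 to 527. Leukocyte markers (1 of 4 kept) were above background in 12 of 40 channels in each group, with sums of 289 to 306 in shunt and 276 to 324 in control RNAs. Epithelial and liver markers (4 of 6 kept) were above background in 32 of 60 against 13 of 60 channels, with sums of 433 to 520.1 and 423 to 519.6, and nerve markers (0 of 3 kept) in 5 of 30 against 2 of 30, with sums of 185 to 205 and 180.4 to 222. The erythroid miR-451 and miR-144 were never above background, with sums of 112 to 119 and 112 to 134. Over all 237 rat miRNA probes, 72.5 to 102 per shunt RNA and 36.5 to 84.5 per control RNA were above background. The liver marker miR-122a was above background in all 20 channels and differed by -0.23 (SE 0.18). The epithelial miR-200a, miR-200b and miR-203 passed in 5, 6 and 11 of 20 channels, at dim mean levels of 6.17, 6.13 and 6.33 log2. The part of the striated muscle and epithelial readings in the miR-30 differences was not tested. In bulk tissue fewer cells of a type and less miRNA per cell cannot be told apart.

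Among miRNAs known for roles in vessel growth and the vessel wall, 17 of the 20 on the array were kept, 12 with differences above 0 and 5 below, against 67 above and 26 below of all 93 kept. Of the 17, 1 (miR-21) passed as higher and 0 as lower (median 0.046, against 0.12 over all), and with the animal as a block 0 of the 93 passed. miR-21 was dim (mean level 6.27 log2, above background in 8 of 20 channels) and was kept through 1 group alone. Among those known to restrain matrix or fibrosis, as miR-30 does in heart, 7 of 9 were kept, 4 above 0 and 3 below, and 0 passed (median 0.020).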

How the data were processed

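Linear intensities of each spot and its local background, in the AF665 and AF546 channels, were deposited as scanned and are not normalized, per the file headers. A flag column marks spots at image reading, per the file headers. The authors' deposited value table has log2 values, 1 per spot and RNA; neither label nor header states its offset or normalization. The collapsed table deposited by the authors holds a signed fold score and a p-value for each pair of RNAs, control over shunt; its folds match the value table within 5.0e-10 log2, so both are 1 source.

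Here, mean foreground and median background were corrected with normexp (offset 50, which understates changes of dim probes), then with loess (span 0.3, 4 iterations) and Aquantile, using limma 3.58.1 under R 4.3.3 with statmod 1.5.0. Log2 values were averaged over the 3 spots, then over both channels of each RNA. A rat miRNA was kept if, in either group, the share of its channels above background reached 0.5 (93 of 237). Shunt and control were compared with lmFit and eBayes, two-sided, calling a Benjamini-Hochberg adjusted p under 0.05 and taking RNAs as independent although neighbours in the loop share an array; p-values may be too small. The number of arrays limits the precision.

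Same-numbered RNAs come from 1 animal, by the sample names in the labels. Their deviations from group means correlated by -0.418, 0.00519, -0.189, -0.0468 and 0.337 in animals 27, 28, 30, 31 and 32. No RNAs were identical (correlations of 0.848 to 0.988). All members are named, with the 5 most like miRNAs by the highest r; members and lists were chosen with earlier results of these data known. The steps were tested on simulated data with planted changes of 1 log2 or more. These are larger than the fitted member differences, so recovery of changes that small was not tested. Other settings tried are given in the closing section.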

Additional observations from a re-analysis of the deposited data

Results flagged for a closer look

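Of the 12 groups of 5 levels (6 members, shunt and control), 0 had a value far from the others by Dixon's test, for which chance alone gives about 5%.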

How the results depend on the processing

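Under 37 alternatives (38 for miR-30d), miR-30a-5p stayed below 0 in 36, miR-30b in 35 and miR-30d in 36, while miR-30c was below 0 in 25 and miR-30a-3p in 18. Some of these settings cannot change a difference: no filter, the stricter filter, adjustment over all probes kept, the animal block and the trended, robust prior. Another 10 left out 1 RNA and 10 left out 1 array. The alternatives are therefore not independent looks at the sign. The count of members past the threshold was 0 throughout, except for 1 (miR-30a-5p, -0.35) with each RNA centred on the kept miRNAs. With the animal as a replicate block it was 0 as well, and the count over all miRNAs was 0 in place of 1. The median of the 5p members (-0.15) was -0.37 with an offset of 0, where miR-30a-5p was -0.62 and did not pass (adjusted p = 0.161), and 0.10 with no between-array normalization. Its range was -0.21 to -0.10 with 1 RNA left out and from -0.19 to -0.12 with 1 array left out.

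Values that turned sign, with no turned value past the threshold, were as follows. No between-array normalization gave miR-30b 0.040, miR-30c 0.26 and miR-30d 0.16. Ratios only gave miR-30a-5p 0.038, and the 2 arrays with both groups gave miR-30b 0.046. Quantile normalization gave miR-30c 0.017 and miR-30a-3p -0.031, the AF546 channel 0.062 and -0.076, and the deposited values 0.15 and -0.012, with 0.011 for miR-30d. miR-30a-3p was also -0.014 with no background correction, -0.044 with an offset of 0, -0.048 with median centring and -0.12 with the centring on the kept miRNAs. With 1 RNA left out miR-30c ran from -0.12 to 0.11 and miR-30a-3p from -0.054 to 0.051, and with 1 array left out from -0.12 to 0.070 and from -0.039 to 0.071. The cause was not tested.

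The count over all miRNAs was 0 with median centring, no between-array normalization, the stricter filter (which kept miR-30d alone of the members), the AF665 channel and the deposited value table. It reached 2 with an offset of 0, the median foreground, quantile normalization, the AF546 channel or adjustment over all probes kept. Values of 3 came with no background correction, no filter or ratios only, and of 4 with the centring or with a trended, robust prior. A separate-channel model gave 8, and 18 had an unadjusted p under 0.05. Leaving out 1 RNA gave 0 to 25: 25 without control 4, 3 without shunt 5, 2 without control 3 and 0 without any other. Leaving out 1 array gave 0 to 2. The difference of 0.40 in miR-30 probes above background per RNA was -0.10 with 1 SD in place of 2 and ran from 0.050 to 0.73 with 1 RNA left out. Exchange within animals was added after seeing the data. Low signal limited all members, miR-30d least, though its difference was -0.38 with an offset of 0.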
